A study of Homo sapiens with 6 samples.

Results

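The 10 genes described here are HRAS and 9 genes that report on, or restrain, signaling from RAS through the MAP kinases: DUSP4, DUSP5, DUSP6, SPRY2, SPRY4, SPRED1, ETV4, ETV5 and PHLDA1. They were taken by gene symbol, and all 10 were found among the 23152 genes of the deposited count table. RNA was sequenced from T24 cells, an established human bladder cancer line that carries a mutant HRAS. The 3 vector samples were the controls and the 3 oeRNF112 samples overexpressed RNF112, a RING finger ubiquitin ligase. All 6 samples came from the same line in serum-containing RPMI medium, so every sample shared the HRAS mutation, and no sample lacked it. By their labels the groups were vector and oeRNF112. The study's methods describe Lipofectamine transfection of plasmids and, for the animal experiments, T24 cells infected with lentivirus and selected with puromycin. They do not say which of these cells were sequenced. The protocol text deposited with the samples mentions siRNA instead. The time between the introduction of RNF112 and harvest was not given for the sequenced cells.

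RAS proteins are switches at the inner face of the cell membrane that, when bound to GTP, activate the RAF, MEK and ERK kinases in turn. ERK then raises transcription of a set of genes, several of which feed back on the pathway. The dual-specificity phosphatases (DUSPs, also called MAP kinase phosphatases) remove the activating phosphates of MAP kinases, and the Sprouty (SPRY) and SPRED proteins act between the receptor and RAF. The PEA3 factors ETV1, ETV4 and ETV5 are ETS transcription factors whose genes follow ERK activity. For this reason mRNA levels of these genes are commonly read as a record of pathway output. The counts hold mRNA only, and phosphorylated ERK was not measured in them.

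The counts were scaled by TMM factors (a per-sample correction for composition) and tested with edgeR's quasi-likelihood test, and a gene was said to rise or fall at a Benjamini-Hochberg adjusted p under 0.05. Totals were between 40029547 and 41259569 counts per sample. Of 14467 genes tested, 18.1% passed, with 9.97% higher and 8.14% lower in oeRNF112 (1442 and 1178 genes, or 2020 and 659 when scaled by library totals alone). RNF112 itself had 27, 19 and 24 counts in vector and 29753, 36963 and 31712 in oeRNF112, which may include reads from the introduced construct. The epithelial keratins KRT7, KRT8 and KRT18 had between 31265 and 64094 counts, while the uroplakins UPK2 and UPK3A, markers of mature urothelium, had at most 7 counts and CDH1 at most 1. Of the 7 urothelial markers, 4 were tested and 1 passed, FOXA1, which fell by 1.08 on the log2 scale (edgeR, adjusted p = 0.00132). PPARG had between 2056 and 2485 counts, GATA3 between 117 and 173 and UPK1A at most 20. Of the 6 leukocyte markers, 4 were tested and 1 passed, and their summed RPKM (reads per kilobase of gene, scaled to the total of the library) was 14.5 to 15.6 in vector and 31.9 to 39.7 in oeRNF112. The passing gene was CD68, and the other 3 tested had log2 fold changes below 0. PTPRC, which defines leukocytes, had between 24 and 54 counts, and CD3E had 0 in 5 of the 6 samples. Of the 6 epithelial markers, 5 were tested, 1 was higher and 2 lower, with a summed RPKM of 1800 to 2230 in vector and 1460 to 1700 in oeRNF112. All 4 mesenchymal markers were tested and 1 was lower, with a summed RPKM of 2090 to 2200 in vector and 1780 to 2100 in oeRNF112. The lower gene was CDH2, with a log2 fold change of -0.44 (edgeR, adjusted p = 0.0252). VIM had between 138650 and 179555 counts, FN1 between 40347 and 78886 and ZEB1 between 844 and 1757. Of the 5 fibroblast markers, 2 were tested and 1 passed, with a summed RPKM of 1.09 to 1.56 in vector and 1.74 to 1.84 in oeRNF112. The passing gene was PDGFRA, at 1, 3 and 8 counts in vector and 19, 29 and 19 in oeRNF112 (edgeR, adjusted p = 0.0194), and COL1A1 had 262, 345 and 360 counts in vector and 418, 421 and 399 in oeRNF112 (edgeR, adjusted p = 0.21). DCN and COL1A2 had at most 1 count and LUM at most 3. The 4 endothelial markers were too low to be tested. The part of these markers in the results below was not tested. In RNA from whole cultures, more cells with a transcript and more transcript per cell cannot be told apart.

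The promoter-proximal sequence upstream of a RefSeq start is shown for 3 of the genes. These 3 give the contrast within the group: SPRY4 rose, its relative SPRY2 did not pass the test, and HRAS is the mutant gene itself. The sequences are from RefSeq on GRCh38.p14, written 5′ to 3′ on the strand of the gene, and all 3 genes lie on the minus strand. Only bases outside the exons of the GENCODE 29 annotation are printed, which left 250 bases for HRAS and SPRY2 and 80 for SPRY4. The 80 bases of SPRY4 lie 250 to 171 bases before the start. The HRAS and SPRY4 stretches lie inside the span that GENCODE 29 gives these genes, since it holds starts further upstream. Capitals mark a match to the motifs listed after the sequences.
HRAS, chr11:535577-535826: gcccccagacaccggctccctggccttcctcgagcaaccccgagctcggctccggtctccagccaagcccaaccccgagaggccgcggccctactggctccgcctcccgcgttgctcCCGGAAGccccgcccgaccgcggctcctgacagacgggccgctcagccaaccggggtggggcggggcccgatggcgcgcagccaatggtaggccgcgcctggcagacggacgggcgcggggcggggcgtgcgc
SPRY2, chr13:80341127-80341376: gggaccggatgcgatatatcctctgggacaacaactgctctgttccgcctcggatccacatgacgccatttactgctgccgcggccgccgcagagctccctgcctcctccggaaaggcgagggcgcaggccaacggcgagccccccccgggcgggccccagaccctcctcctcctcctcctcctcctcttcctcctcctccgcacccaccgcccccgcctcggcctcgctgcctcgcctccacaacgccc
SPRY4, chr5:142324418-142324497: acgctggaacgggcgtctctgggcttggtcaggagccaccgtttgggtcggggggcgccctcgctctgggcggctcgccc

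RefSeq sequence was matched for 6 of the 10 genes (HRAS, DUSP6, SPRY2, SPRY4, SPRED1 and PHLDA1) in 8 windows, since SPRY2 has several starts, of which the most upstream is shown. In the 250 bases before each start, 6 motifs were searched on both strands, and of these only TATAAA can lie inside another, the CArG box. The ETS motif CCGGAAG was found in HRAS, between 133 and 127 bases before the start, and in none of the other 5 genes. Among all 35116 windows of this length, 8.52% held it. The E-box CACGTG, which MYC and its partner MAX bind, was in none of the 6 genes and in 6.34% of all windows. The AP-1 motif TGANTCA (6.57% of all windows), the cyclic AMP response element TGACGTCA (1.65%), the CArG box of serum response factor (1.16%) and TATAAA (10.7%) were also in none of the 6. These matches describe letters in a window and not binding.

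Of the 10 genes, 4 rose in oeRNF112 and none fell. DUSP5, SPRY4, DUSP4 and PHLDA1 were higher, by 2.69, 1.65, 1.65 and 1.27-fold. HRAS mRNA did not pass the test, with a fold of 0.989, nor did DUSP6, SPRED1, ETV5, ETV4 and SPRY2. The 4 rises stand beside 9.97% of all genes that were higher, and no gene of the 10 was lower at an unadjusted p under 0.05 in edgeR, or at an adjusted p under 0.05 in DESeq2 or limma. Of the 10 genes, 7 had a log2 fold change above 0, as did 50.4% of all genes tested, and the median was 0.189 against 0.00267. In each sample, the median of the 10 genes relative to their vector mean was -0.0428, -0.00468 and 0.0105 on the log2 scale in vector and 0.169, 0.223 and 0.26 in oeRNF112.

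**Figure D1:**
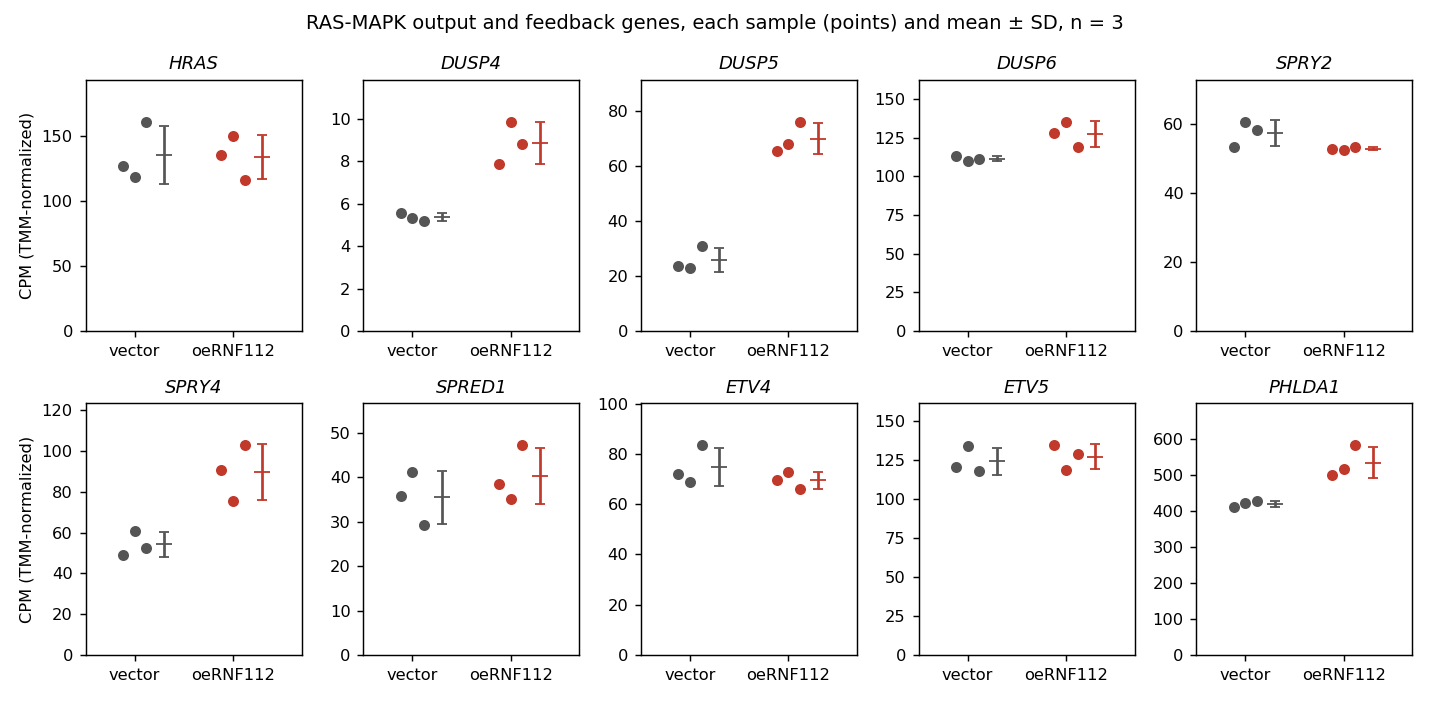
Normalized level of each of the 10 genes (y axis, TMM-normalized CPM, counts scaled to library size, from 0) in the 3 vector samples (grey) and the 3 oeRNF112 samples (red), with the mean and SD beside the points. The points of the groups are separate for DUSP4, DUSP5, DUSP6, SPRY4 and PHLDA1 and overlap for the other 5 genes. Of all genes tested, 36.8% had separate groups.

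HRAS encodes the RAS protein that is mutant in T24 cells. The gene lies at chr11:532242-537287 on the minus strand of GRCh38, and no other gene of GENCODE 29 overlaps it. It had 5005, 4737 and 6207 counts in vector and 5607, 6171 and 4915 in oeRNF112. The groups overlapped fully, with the highest and the second highest value in different groups. The log2 fold change was -0.02 (standard error, SE, 0.133), and the 95% interval of the fold ran from 0.806 to 1.21. Its direction turned with the scaling, to 0.0781 on the log2 scale with library totals. The deposited counts hold 1 value per gene and carry no information on alleles.

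Among the 6 RAS genes examined, HRAS had the highest level per gene length. MRAS was the only gene of the 6 to pass the test, which is 16.7% against 18.1% of all genes. HRAS made up 39.2% ± 3.68 of the summed RPKM of the 6 genes in vector and 39.4% ± 1.66 in oeRNF112 (SD, n = 3). NRAS made up 12.8% ± 1.96 and 11.9% ± 1.55. The log2 fold changes of NRAS, RRAS and RRAS2 were -0.12, 0.03 and -0.11, with standard errors between 0.0866 and 0.132. MRAS, a relative of the classical RAS proteins that works with SHOC2 on RAF, had 70, 82 and 88 counts in vector and 215, 180 and 229 in oeRNF112. Every oeRNF112 sample was above every vector sample, with a log2 fold change of 1.295 (SE 0.173, with an edgeR adjusted p = 0.00134). It nevertheless remained the scarcest of the 6, at 0.331% ± 0.0654 of their summed RPKM in oeRNF112.

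DUSP5 encodes a nuclear phosphatase directed at ERK and showed the largest rise of the 10 genes. It lies at chr10:110497838-110511544 on the plus strand. Its counts were 944, 919 and 1198 in vector and 2710, 2805 and 3227 in oeRNF112. The lowest oeRNF112 sample was thus above the highest vector sample, at 65.4 against 31.0 CPM (counts scaled to library size). This was a log2 fold change of 1.43 (SE 0.128, with an edgeR adjusted p = 0.000184), the 44th smallest p-value of all genes tested. All 15 alternative analyses kept this call, with log2 fold changes from 1.35 to 1.58. The annotation lists the processed pseudogenes DUSP5P1 and DUSP5P2, which the count table does not name, and reads shared with them are uncertain.

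DUSP4 encodes another nuclear MAP kinase phosphatase, at chr8:29333064-29350668 on the minus strand. It had 221, 213 and 201 counts in vector and 327, 406 and 373 in oeRNF112. The groups were apart, and the vector samples were close to each other, at 5.37 ± 0.194 CPM against 8.86 ± 0.995 CPM in oeRNF112 (SD, n = 3). In the fit, DUSP4 had a log2 fold change of 0.72 (SE 0.132, with an edgeR adjusted p = 0.00599). It was the scarcest of the 10 genes in both groups, with a mean RPKM of 0.715 and 1.26, so that a filter on RPKM below 1 removed it.

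DUSP6 encodes the cytoplasmic phosphatase of ERK that is most often read as a marker of pathway activity. It lies at chr12:89347232-89353271 on the minus strand. It had 4466, 4387 and 4290 counts in vector and 5317, 5562 and 5028 in oeRNF112. All 3 oeRNF112 samples were above all 3 vector samples after scaling, which 36.8% of all genes tested also showed in either direction. The log2 fold change was 0.20 (SE 0.0834), with a 95% interval of the fold from 1.01 to 1.3, but the adjusted p was 0.132 from edgeR. In 4 of the 9 alternatives that keep all samples the adjusted p was under 0.05, at the lowest 0.0234 (limma). These 4 were the fit with library totals and the limma fits on RPKM. All 4 lacked a correction for composition, so they are not separate checks. In the remaining alternatives that keep all samples DUSP6 did not pass (edgeR or DESeq2, adjusted p from 0.115 to 0.412). An antisense gene shares 40.5% of the exon bases of DUSP6, and the strand setting of the counting is not given in the sources used here.

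Because DUSP5 and DUSP6 were counted in the same samples, their ratio does not depend on the scaling. In RPKM, DUSP5 was 0.31, 0.307 and 0.409 of DUSP6 in vector and 0.746, 0.738 and 0.94 in oeRNF112. The ratio rose by 1.25 on the log2 scale, a difference of means with SDs of 0.236 and 0.197. The DUSP4 to DUSP6 ratio was 0.0234 to 0.0247 in vector and 0.0307 to 0.037 in oeRNF112. In all, 5 ratios were compared, all chosen after the values had been seen. With 3 samples a group, the two-sided exact permutation test cannot give a p below 0.1, which both phosphatase ratios reached (adjusted p = 0.167 over the 5 ratios).

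**Figure D2:**
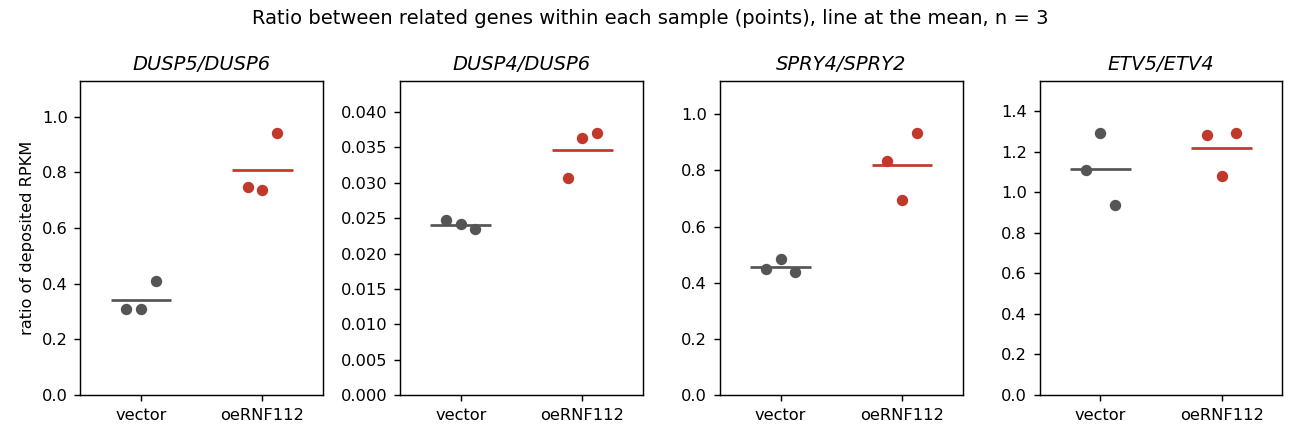
Ratio of the deposited RPKM of related genes within each sample (y axes from 0) in vector (grey) and oeRNF112 (red), with a line at each mean. DUSP5/DUSP6, DUSP4/DUSP6 and SPRY4/SPRY2 are separate between the groups, whereas ETV5/ETV4 lies 0.938 to 1.29 in vector and 1.08 to 1.29 in oeRNF112.

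In the whole family of 10 MAP kinase phosphatases, DUSP4, DUSP5 and DUSP6 included, 9 were tested, 5 were higher and none was lower, beside 9.97% of all genes that were higher. All 9 had a log2 fold change above 0 (50.4% of all genes did), with a median of 0.633. Besides DUSP4, DUSP5 and DUSP6, 6 were tested and 3 were higher. DUSP2 was too low to be tested, with at most 2 counts. DUSP1, which acts on p38 and JNK as well as ERK, went from 97.7 ± 9.87 to 173 ± 19.8 CPM (SD, n = 3), a log2 fold change of 0.82 (SE 0.111, with an edgeR adjusted p = 0.00135). DUSP8 and DUSP10, which act mainly on JNK and p38, rose by 0.97 and 0.63 on the log2 scale (edgeR, adjusted p = 0.00625 and 0.0307). The call of DUSP10 was lost in 4 of the 6 analyses that left out a sample. DUSP7, a cytoplasmic ERK phosphatase like DUSP6, had a log2 fold change of 0.14 (edgeR, adjusted p = 0.286), DUSP16 of 0.11 (edgeR, adjusted p = 0.559) and DUSP9 of 0.35 (SE 0.438, with an edgeR adjusted p = 0.616). The rises therefore included phosphatases of p38 and JNK. The summed RPKM of the family was 98.9 to 108 in vector and 161 to 180 in oeRNF112. DUSP1 made up 45.8% ± 1.78 of it in vector and 51% ± 2.51 in oeRNF112, DUSP5 9.86% ± 1.07 and 16.8% ± 1.19, and DUSP6 29% ± 1.67 and 21% ± 1.84 (SD, n = 3).

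SPRY4 and SPRY2 encode Sprouty proteins, which hold back growth factor signaling to RAS and RAF. SPRY4 lies at chr5:142310427-142326455 and had 1945, 2433 and 2031 counts in vector and 3755, 3096 and 4351 in oeRNF112. Each oeRNF112 sample was above each vector sample, and the spread within oeRNF112 was the wider one, at 89.6 ± 13.7 against 54.2 ± 5.99 CPM (SD, n = 3). The log2 fold change was 0.72 (SE 0.127, with an edgeR adjusted p = 0.00474). SPRY2, at chr13:80335976-80340951, had 2107, 2428 and 2245 counts in vector and 2183, 2162 and 2258 in oeRNF112. Its groups overlapped, and the log2 fold change was -0.12 (SE 0.0868, 95% interval of the fold from 0.806 to 1.05).

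The SPRY4 to SPRY2 ratio of RPKM was 0.447, 0.485 and 0.438 in vector and 0.832, 0.693 and 0.932 in oeRNF112. It rose by 0.835 on the log2 scale, with the smallest exact permutation p that 3 samples a group allow, 0.1. SPRY1 went the other way, from 262, 236 and 212 counts to 141, 112 and 87. It fell by 1.14 on the log2 scale (SE 0.194, with an edgeR adjusted p = 0.00408), and this call stood in all 15 alternatives. SPRY3 was too low to be tested, with at most 18 counts.

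SPRED1, whose protein recruits neurofibromin to RAS, lies at chr15:38252326-38357249 on the plus strand. It had 1421, 1650 and 1130 counts in vector and 1598, 1440 and 2000 in oeRNF112. The samples of both groups were mixed, with the widest spread within groups of the 10 genes (a pooled SD of 0.235 on the log2 scale). For SPRED1 the log2 fold change was 0.18 (SE 0.146, 95% interval of the fold from 0.905 to 1.42). SPRED2 and SPRED3 had log2 fold changes of 0.12 and -0.10 and did not pass either. Over the Sprouty and SPRED family, 1 of 6 tested genes was higher and 1 lower, beside 9.97% and 8.14% of all genes. The median of the 6 log2 fold changes was 0.00919.

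ETV4 and ETV5 did not pass the test. ETV4, at chr17:43527844-43579620 on the minus strand, had 2855, 2755 and 3219 counts in vector and 2889, 2987 and 2793 in oeRNF112. ETV4 had a log2 fold change of -0.11 (SE 0.0974), and the 95% interval of the fold was 0.798 to 1.08. ETV5, at chr3:186046308-186110318 on the minus strand, had 4770, 5350 and 4545 counts in vector and 5562, 4856 and 5436 in oeRNF112. Its log2 fold change was 0.03 (SE 0.0901, 95% interval of the fold from 0.89 to 1.18). For both genes the samples of the groups were interleaved, and rises as large as that of DUSP5 lay outside both intervals. ETV1, the third factor of this family, had 2440, 2881 and 1969 counts in vector and 1880, 1730 and 2071 in oeRNF112. It passed the threshold narrowly, with a log2 fold change of -0.44 (SE 0.127, with an edgeR adjusted p = 0.0398), although vector replicate 3 lay below an oeRNF112 sample in unscaled counts. The call was lost in 5 of the 6 analyses that left out a sample, all except that without vector replicate 3. It was also lost with library totals, in the replicate block and in all limma fits on RPKM (limma, adjusted p of up to 0.269).

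PHLDA1, a pleckstrin homology-like protein induced by growth factors, was the second most abundant of the 10 genes per gene length. It lies at chr12:76025447-76033932 on the minus strand. It had 16262, 16811 and 16482 counts in vector and 20735, 21216 and 24616 in oeRNF112. The groups did not overlap, and the vector samples varied by 1.91% (coefficient of variation of CPM) against 8.07% in oeRNF112. The log2 fold change was 0.34 (SE 0.0884, with an edgeR adjusted p = 0.0253). This was the least secure of the 4 rises, since the call was lost without vector replicate 1, vector replicate 3, oeRNF112 replicate 1 or oeRNF112 replicate 3, with an adjusted p of up to 0.102 and log2 fold changes from 0.277 to 0.387. PHLDA2 and PHLDA3 had log2 fold changes of 0.31 and 0.24 (edgeR, adjusted p = 0.102 and 0.28).

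**Figure D3:**
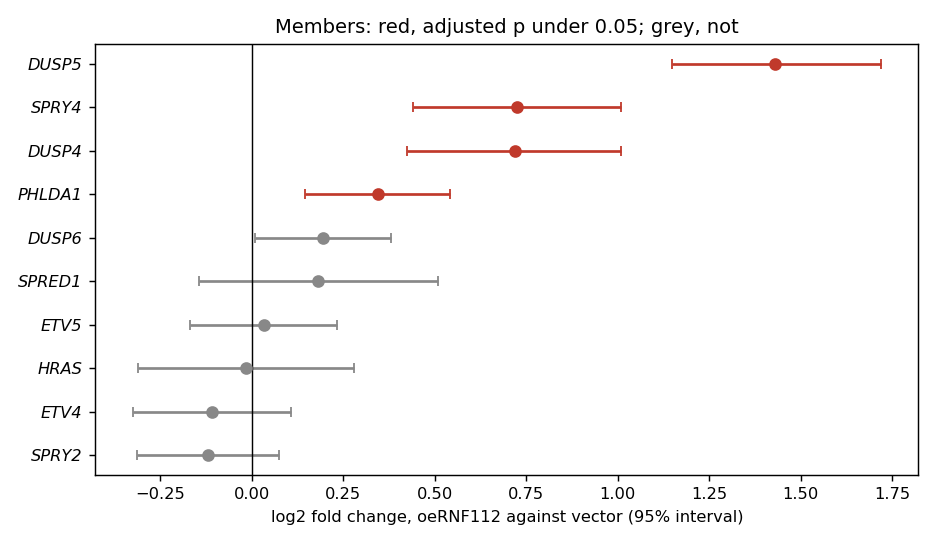
Fitted log2 fold change of the 10 genes (x axis, oeRNF112 against vector) with its 95% interval, in red where the adjusted p was under 0.05. DUSP5 stands at 1.43, SPRY4 and DUSP4 at 0.72 and PHLDA1 at 0.34, while the intervals of SPRED1, ETV5, HRAS, ETV4 and SPRY2 include 0.

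The order of the 10 levels was compared in RPKM, which corrects for gene length. In vector HRAS was highest at 104 ± 16, followed by PHLDA1 at 68.7 ± 1.83, DUSP6 at 29.7 ± 0.306, ETV5 at 29.4 ± 2.57, ETV4 at 26.7 ± 2.39, SPRY2 at 16 ± 1.29, DUSP5 at 10.1 ± 1.61, SPRY4 at 7.34 ± 0.942, SPRED1 at 3.87 ± 0.716 and DUSP4 at 0.715 ± 0.0266 (SD, n = 3). The ranges of DUSP6 and ETV5 overlapped, as did those of ETV5 and ETV4, whereas the other neighbors in this order had separate ranges. In oeRNF112, DUSP5 moved from the seventh to the fifth place, at 29.2 ± 2.69. It lay above ETV4 (26.4 ± 0.845), and its range overlapped that of ETV5 (32.1 ± 2.46). PHLDA1 reached 93.1 ± 8.7, and its range overlapped that of HRAS at 110 ± 12.2. The summed RPKM of the 10 genes was 282 to 317 in vector and 358 to 363 in oeRNF112. RPKM lacks the TMM factors, which were 0.9572 to 0.9883 in vector and 1.014 to 1.049 in oeRNF112. Relative to the scale of the test, RPKM is therefore higher in oeRNF112. This holds for all sums and means of RPKM given here.

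The genes whose pattern over the 6 samples was most like that of DUSP5 were sought by the root mean square difference of log2 CPM after centering each gene on its own mean. The closest were MOB3B, AREG and LOC105374464, with differences of 0.0968, 0.104 and 0.114, against a median of 0.755 over all genes tested. AREG encodes amphiregulin, a ligand of the EGF receptor, and had 155, 165 and 193 counts in vector and 425, 500 and 472 in oeRNF112, all 3 above the vector samples. MOB3B had 59, 64 and 68 counts in vector and 168, 185 and 221 in oeRNF112. LOC105374464 had at most 22 counts in any sample. No gene of the 10 fell, so no pattern of a fall was sought.

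Upstream of these genes, most components of the pathway did not pass the test. Of 17 tested genes of the RAF, MEK and ERK cascade 1 was called, which is 5.88% against 18.1% of all genes, but the number was 4 with DESeq2 or without vector replicate 2, 3 with library totals or without oeRNF112 replicate 2, and 0 with the replicate block or without vector replicate 1, oeRNF112 replicate 1 or oeRNF112 replicate 3. The gene called was KSR1, a scaffold that brings RAF, MEK and ERK together, at 156, 150 and 131 counts in vector and 255, 204 and 292 in oeRNF112. Its log2 fold change was 0.70 (SE 0.163, with an edgeR adjusted p = 0.017), and this call was lost in 3 of the 6 analyses that left out a sample. MAP2K1, which encodes MEK1, had a log2 fold change of 0.27 (edgeR, adjusted p = 0.0509). Somewhat further from the threshold were PEBP1, with a log2 fold change of -0.31, and RPS6KA3, with 0.44 (edgeR, adjusted p = 0.055 and 0.0569). The median of the cascade was -0.0428. Of 16 tested adaptors, exchange factors and GTPase activators of RAS, 1 was higher and 1 lower, which is 12.5% against 18.1% of all genes. RASGRP2, also in this list, narrowly missed the threshold, with a log2 fold change of 0.90 (edgeR, adjusted p = 0.0504). Without vector replicate 1 none of the 16 was called, against 1061 of all genes. SHC1, an adaptor between receptors and RAS, fell by 0.36 on the log2 scale (SE 0.081, with an edgeR adjusted p = 0.0143), from 21770, 22276 and 21644 counts to 17533, 17251 and 19272. The SHC1 call was lost without vector replicate 1, without oeRNF112 replicate 1, in the replicate block and in the limma fits on log2(RPKM + 1) and log2(RPKM + 0.1), at an adjusted p of up to 0.139. RASGRP3, an exchange factor for RAS, had at most 11 counts in vector and 25, 43 and 28 in oeRNF112, and the call was lost without vector replicate 1 (edgeR, adjusted p = 0.0585).

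Other inhibitors that act in feedback were higher in part. Of 6 tested, 3 rose and none fell, beside 9.97% of all genes that were higher and 8.14% that were lower. The median of the 6 on the log2 scale was 0.469. ERRFI1, an inhibitor of the EGF receptor, had 9939, 10422 and 8134 counts in vector and 18511, 19395 and 17441 in oeRNF112, with a log2 fold change of 0.88 (SE 0.103, with an edgeR adjusted p = 0.000664). IL17RD, also called SEF, and TRIB1, a pseudokinase, rose by 0.70 and 0.60 on the log2 scale (edgeR, adjusted p = 0.00962 and 0.00225). TRIB1 passed in all 15 alternatives, while the call of IL17RD was lost without vector replicate 1 (edgeR, adjusted p = 0.0576) and in the limma fits on log2(RPKM + 1) and log2(RPKM + 0.1) (0.0535 and 0.0515). Without vector replicate 2, 5 of the 6 inhibitors were called, in a fit that called 3387 of all genes against 2620 with all samples. The summed RPKM of the 6 inhibitors was 51.6 to 66.2 in vector and 99.3 to 101 in oeRNF112.

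Among 10 other genes commonly raised by ERK, 3 were higher, 1 was lower and 6 did not pass. Of all genes tested, 9.97% were higher and 8.14% lower. HBEGF, which encodes a ligand of the EGF receptor, had 885, 935 and 1052 counts in vector and 2320, 2313 and 2526 in oeRNF112. This was a log2 fold change of 1.235 (SE 0.101, with an edgeR adjusted p = 0.00013), with no overlap between the groups. The receptor gene EPHA2 and IER3, a survival gene, rose by 0.37 and 0.45 on the log2 scale (edgeR, adjusted p = 0.0161 and 0.0147). The call of EPHA2 was lost without vector replicate 1, oeRNF112 replicate 1 or oeRNF112 replicate 3 and in the replicate block (edgeR, adjusted p of up to 0.126), and that of IER3 without vector replicate 1 and in the block (0.0688 and 0.0933). FOS, which encodes a subunit of AP-1, went the other way, from 1194, 1512 and 1610 counts to 434, 367 and 714. It fell by 1.60 on the log2 scale (SE 0.217, with an edgeR adjusted p = 0.00141). CCND1, which encodes cyclin D1, had a log2 fold change of -0.07, FOSL1 of 0.09, LIF of -0.01 and EGR1 of 0.35 (SE 0.164, with an edgeR adjusted p = 0.163). MYC mRNA had 3237, 3222 and 3334 counts in vector and 3098, 3244 and 3262 in oeRNF112, a log2 fold change of -0.11 (SE 0.0807, with an edgeR adjusted p = 0.377).

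Over all 73 pathway genes listed besides the 10, 66 were tested, 12 were higher and 4 lower, which is 24.2% against 18.1% of all genes. Without vector replicate 1 the number called was 9 of them, against 1061 of all genes. No test compared these lists with other genes, and the lists were chosen with earlier results of these data known. Calls in both directions were found in 3 of the 9 pathway lists, the RAS regulators, the Sprouty and SPRED family and the other ERK output genes. In 5 lists all calls were higher, and in the PEA3 factors the only call, ETV1, was lower.

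**Figure D4:**
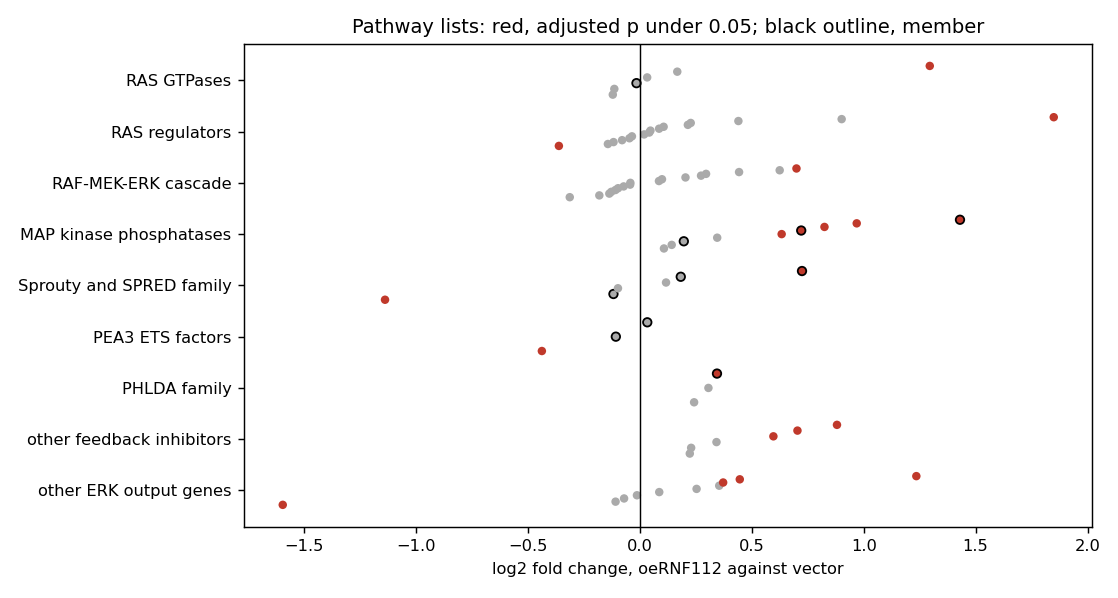
Log2 fold change (x axis, oeRNF112 against vector) of every tested gene of the 9 pathway lists, in red where the adjusted p was under 0.05 and with a black outline for the 10 genes. The MAP kinase phosphatases and the other feedback inhibitors lie to the right of 0, while the Sprouty and SPRED family and the other ERK output genes hold called genes on both sides.

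The calls on the 10 genes were repeated under 9 other processing choices and with each sample left out. DUSP5 and SPRY4 kept an adjusted p under 0.05 in all 15 repeats, and DUSP4 in all 14 in which it could be tested. SPRY4 ranged from 0.614 to 0.847 on the log2 scale over the 6 fits that each lacked a sample, and DUSP4 from 0.647 to 0.797. HRAS, SPRY2, SPRED1, ETV4 and ETV5 passed in none of the 15.

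**Figure D5:**
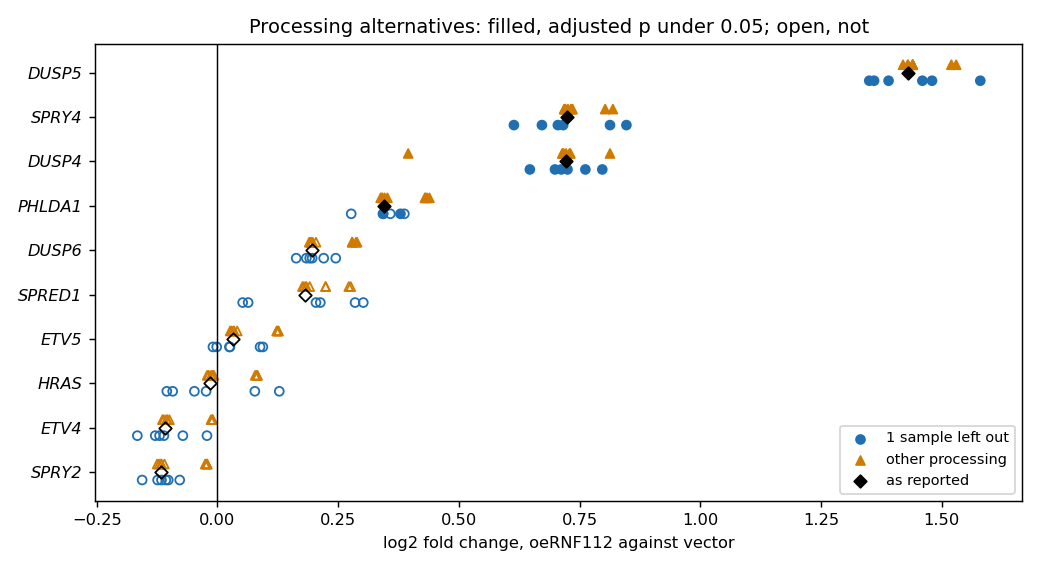
Log2 fold change (x axis) of the 10 genes as reported (black), with each sample left out (blue circles) and under other processing (orange triangles), filled where the adjusted p was under 0.05. DUSP5, SPRY4 and DUSP4 are filled throughout, PHLDA1 is open in 4 of the 6 analyses that left out a sample, and HRAS and ETV5 lie on both sides of 0.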

How the data were processed

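RNA of 3 vector and 3 oeRNF112 samples of T24 cells was sequenced from stranded mRNA libraries. Raw read counts for each gene were deposited, as were RPKM values that the authors computed. The submitters' processing notes name Trimmomatic 0.36, featureCounts, Subread 1.5.1 and the build GRCh38, and the aligner, annotation and strand setting are not given in the sources used here. For all 13451 genes with at least 10 counts in every sample, deposited RPKM equalled count over column total and 1 gene length (spread under 0.001 of it), so that both tables hold the same measurement. Counts were tested with edgeR 4.0.16 (R 4.3.3) after its filter on low counts, which all 10 genes passed, with TMM factors and no covariate. The standard error is the log2 fold change over the root of the F statistic. Nothing states that samples of a group were separate cultures, so the p-values measure only the spread between these samples. No pair of samples held identical values. The precision of a count is limited by counting error: 0 counts allow up to 3, or 0.0727 to 0.0749 CPM. Alternatives were DESeq2 1.42.0, other scalings and filters, limma 3.58.1 on log2(RPKM + 1) or log2(RPKM + 0.1), a replicate block and each sample left out. The edgeR, DESeq2 and limma fits were first tested on simulated data with known fold changes. Of genes changed by 0.5 on the log2 scale, edgeR called 38%, DESeq2 50% and limma on log2(RPKM + 1) 2%. Of genes changed by 1, they called 84%, 84% and 56%. A gene that did not pass may therefore still have changed by a small amount. The members and lists were chosen with earlier results of these data known. Named genes are RNF112, the 10 members, their families, every called gene of the lists and the 3 genes closest in pattern to the member with the largest rise. The marker genes, MAP2K1, PEBP1, RPS6KA3, RASGRP2, CCND1, FOSL1, LIF, EGR1 and MYC fall outside this rule and were named after their values were seen. Some genes of the lists are not reported here by name.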

Additional observations from a re-analysis of the deposited data

How the results depend on the processing

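Across the 9 other processing choices the number of the 10 genes called was between 3 (replicate block) and 5, always higher and never lower. Their median log2 fold change was 0.282 with library totals, 0.252 with limma on log2(RPKM + 1) and 0.279 with a pseudocount of 0.1, and it ran from 0.161 to 0.243 over the fits without a sample. In these fits 3 or 4 genes were called. Library totals moved the median of all genes to 0.0962 and gave 659 lower genes, and limma gave 424, 430 with the smaller pseudocount and 603 after a filter on mean RPKM below 1, which left no value for DUSP4. HRAS turned positive with library totals (0.0781) and in the limma fits (0.082, 0.0827 and 0.082). With the replicate block, 876 genes were called (618 higher, 258 lower), as were 10 of the other pathway genes, and PHLDA1 was not (edgeR, adjusted p = 0.164). Deviations from the group means of equally numbered samples had correlations of -0.116, -0.363 and -0.296, which gives no sign of a pairing. Leaving out a sample gave between 1061 genes without vector replicate 1 and 3387 without vector replicate 2 (702 to 1841 higher, 359 to 1546 lower), and 9 to 21 of the other pathway genes. In these fits HRAS went from -0.105 to 0.128, ETV5 from -0.00942 to 0.094, RRAS from -0.0976 to 0.152 and SPRED3 from -0.164 to 0.0176, none past the threshold. The cause of these changes was not tested. For the 41 named genes, 541 values stayed on their side, 44 lost significance, 7 gained it and 11 changed sign.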
